A study of Mus musculus with 2 samples.

Results

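Cycling C1q-high tumor macrophages were studied in 2 single-cell RNA libraries of B16F10 melanoma, a transplantable mouse melanoma line. They were chosen by measured values: at least 10 unique molecular identifiers (UMIs, each a tagged transcript molecule) of C1qa, C1qb and C1qc together and at least 0.2% of the cell's UMIs, at most 1 UMI of the Cd3 genes and at most 1 of the Cd79 genes, melanoma transcripts (Mlana, Pmel, Tyrp1, Dct) under 0.1%, and at least 3 UMIs of Mki67 and Top2a together. The rule found 392 cells, of which 176 came from control and 216 from the library labelled knockout, among 1528 C1q-high macrophages (664 and 864) and 12815 barcodes with at least 200 genes and at most 10% mitochondrial UMIs (7086 and 5729). The C1q-high macrophages with 0 UMIs of Mki67 and Top2a, 391 and 498 cells, are called non-cycling here and served for comparison, and the 97 and 150 with 1 or 2 such UMIs were kept apart.

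The control tumors grew in C57BL/6 mice of genotype Usp18f/f, whose Usp18 gene is flanked by recombination sites. The others grew in Usp18f/f LysM-Cre mice of that background, in which Cre recombinase is produced from the lysozyme M gene Lyz2, a gene active in myeloid cells at large and not in macrophages alone. All tumors were injected under the skin and taken at day 14, 4 tumors of a group were pooled, and live CD45+ cells were sorted into 1 library per group with the 10x Genomics 3′ chemistry. With 1 pool per group there was no replicate, so no test between the groups was possible, and every interval given below is a 95% interval for counting error only.

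C1q is the recognition protein of the classical complement pathway, and in tumors its genes mark mature macrophages that take up dying cells and antigen-antibody complexes. Most tumor macrophages come from blood monocytes, but macrophages can also divide where they are, under growth factors such as CSF1. Dividing cells first license and copy their DNA, with MCM helicase and polymerase genes at their peak, and then build a spindle, condense chromosomes and separate them, with mitotic kinase and kinetochore genes at their peak. Usp18 removes the ubiquitin-like protein ISG15 from its targets and dampens signalling from the type I interferon receptor.

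The members carried transcripts of macrophages. Csf1r, the receptor for CSF1, was detected in 170 of 176 control members and 205 of 216 members of the library labelled knockout, Adgre1, which encodes F4/80, in 168 and 206, and Cd68, a lysosomal glycoprotein, in 174 and 215. Of the 26 genes of a mature tumor macrophage list all were measured, and their summed level was 24136 CPM in control members and 27658 CPM in the others, where CPM is the UMIs of a gene or list summed over the cells of a class and scaled to a class total of 1000000 UMIs. Genes of lineages the rule did not screen against were at 0 in some cases: Col1a1, Col1a2, Col3a1 and Dcn of fibroblasts, and Camp, Ngp and Ltf of neutrophil granules, had no UMI in members of either library. Others of their lists were detected. The fibroblast and endothelium list had UMIs of 4 of 8 markers in control and 3 of 8 in the other, and summed to 8.50 and 16.9 CPM. The neutrophil list had UMIs of 7 and 5 of 10 markers. T cell and B cell genes were low in part because the rule removed cells with Cd3 or Cd79 UMIs, so their level is no check of identity. The T cell list summed to 56.4 and 49.8 CPM, with UMIs of 9 of 13 markers in control and 12 of 13 in the other, and the B cell list summed to 36.3 and 34.8 CPM. Dendritic cell lists were well above 0: the cDC1 list summed to 439 and 339 CPM, the cDC2 list to 249 and 148 CPM and the plasmacytoid list to 486 and 703 CPM. Non-cycling cells held 387 and 341 CPM, 185 and 175 CPM, and 514 and 895 CPM of these lists. The sums in members rest on few genes: 4 of 8 cDC1, 5 of 8 cDC2 and 3 of 8 plasmacytoid genes had at least 50 UMIs over both libraries. Bst2 had the highest knockout over control ratio of those plasmacytoid genes. Xcr1 and Clec9a, which define cDC1, had no UMI in members of the library labelled knockout but were detected in control, and the part of dendritic cells in the results was not tested. Neutrophil genes were uneven, with 269 CPM in control members and 24.4 CPM in the others, and 1 control cell held 25.7% of the control UMIs. The natural killer list stood at 20.9 and 60.0 CPM, and 1 cell of the library labelled knockout held 72.3% of the latter.

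The members were deep and the library labelled knockout was deeper. Control members held a median of 12973 UMIs and 3698.5 genes and the members of the other library 16159.5 UMIs and 4134.5 genes, against 8535 and 8134 UMIs in non-cycling cells, and the class totals were 2588966 and 3735874 UMIs. The pools also differed in the animals they held. Counting only cells with Xist alone or Y-linked transcripts alone, 30.8% of control members and 61.7% of members of the library labelled knockout had Xist, against 32.9% and 83.1% of non-cycling cells. Cells with both were 5 of 176 members (2.84%, exact interval 0.929 to 6.50%) and 26 of 216 (12.0%, 8.02 to 17.1%), and these 26 had a median of 26432.5 UMIs. Non-cycling cells had both in 3.84% and 2.41%, and kept cells outside the C1q-high macrophages in 2.21% and 2.71%. Some values below are therefore also given for Xist-only members (48 and 108 cells) and Y-linked-only members (108 and 67 cells), groups that can hold different mice of a pool. Most comparisons of cycling with non-cycling cells are given undivided. There were 8 barcode sequences that occurred in both libraries, and 1 member carried one of them.

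Usp18 (ENSMUSG00000030107, GRCm38 chr6:121245906-121270917) went against its label. It had 46 UMIs (17.8 CPM) in control members and 123 UMIs (32.9 CPM) in members of the library labelled knockout, a ratio of 1.85 (1.31 to 2.66). The labels do not say which part of the gene was to be deleted, so a 3′ tag may lie outside it and be no check. Within kinds of cells it was 16.0 and 31.5 CPM in Xist-only members, and 18.8 and 18 CPM in Y-linked-only members. Lyz2 (chr10:117277331-117282321), the lysozyme gene that carries Cre, separated the libraries: 5370 CPM in control members and 8.83 CPM in the others. It was detected in 174 of 176 and in 23 of 216 members. Its neighbour and near-identical copy Lyz1 was higher instead, at 13.9 and 152 CPM, and since reads of the pair can be exchanged, its level is uncertain.

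The cut of 3 UMIs lay on a slope, not at a gap. Members had a median of 12 Mki67 and Top2a UMIs in control (quartiles 6 and 27.25) and 10 in the other library (5 and 22), up to 76 and 98. Just inside the cut, 17 and 35 cells had 3 such UMIs, with 1416 and 1958 CPM of the mitosis genes described below. Just outside it, 26 and 32 cells had 2, with 1031 and 1099 CPM. Cells with 0 had 447 and 503 CPM, and cells with at least 20 had 9111 and 7813 CPM. In B cells, which are small and should rarely reach the cut through stray RNA, 7 of 1329 and 1 of 412 cells passed it (0.527% and 0.243%), at median depths of 1547 and 1824.5 UMIs.

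How many C1q-high macrophages were cycling depended on depth and on the kind of cell. Unthinned, members made up 26.5% of control C1q-high macrophages (23.2 to 30%) and 25% of the 864 in the other library (22.1 to 28.0%). With each cell thinned to 5000 UMIs, which left out 63 and 152 shallower cells, the shares were 22.6% (136 of 601, 19.3 to 26.2%) and 16.7% (119 of 712, 14.0 to 19.7%). The lower share in the library labelled knockout was found in its Xist-only cells, at 12.7% (9.84 to 16.1%) against 25.4% (18.4 to 33.3%) in control. Y-linked-only cells stood at 27.0% (20.3 to 34.5%) and 25.4% (20.9 to 30.4%), whose intervals overlap. Among cells deep enough to be thinned to 10000 UMIs the order of the whole libraries turned, at 32.5% in control and 34.4% in the other, with overlapping intervals.

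The share of cycling cells was lowest in the bin of lowest C1q. In cells thinned to 5000 UMIs and binned by their remaining C1q UMIs, it was 13.6% of control cells with 0 to 20, 18.5% with 21 to 35, 25.7% with 36 to 50, 31.6% with 51 to 65 and 23.5% with 66 or more. In the library labelled knockout the same bins gave 2.83%, 12.4%, 18.6%, 26.7% and 19.5%. The highest share lay in the bin of 51 to 65 UMIs in each library, and the bin above it overlapped it within its interval (14.8 to 34.2% in control). The lowest bins held 14 of 103 cycling cells (7.63 to 21.8%) in control and 3 of 106 (0.587 to 8.05%) in the other, intervals that overlap narrowly, and Xist-only cells were 23 of those 103 and 92 of those 106. Within Xist-only cells these bins held 4 of 23 (4.95 to 38.8%) and 3 of 92 cycling cells (0.678 to 9.23%), intervals that also overlap. Both C1q and the cycling call are values the rule used, so the bins and their plot describe the chosen cells and support nothing further.

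**Figure D1:**
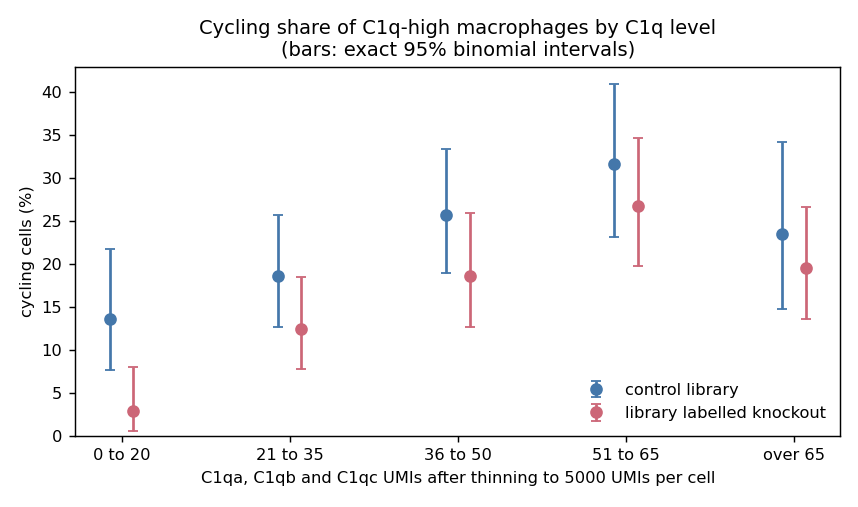
Share of C1q-high macrophages with at least 3 Mki67 and Top2a UMIs (y axis, percent), by C1q UMIs per cell after thinning to 5000 UMIs (x axis, bins), for the control library and the library labelled knockout, with exact 95% binomial intervals as bars. The share was 13.6% and 2.83% in the lowest bin and 31.6% and 26.7% in the bin of 51 to 65 UMIs.

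Genes of the cell cycle stood high in the members, as their choice by Mki67 and Top2a makes likely, so these levels describe the cells and support nothing further. Of 8295 genes with at least 50 UMIs over both classes in control, 329 (3.97%) were at least 2-fold higher in cycling than in non-cycling cells and 59 (0.711%) at least 2-fold lower, and of 8759 in the library labelled knockout 333 (3.80%) and 207 (2.36%). These and later log2 ratios are of CPM plus 5, which understates ratios of genes at low levels. The order of the lists was nearly alike in both libraries. Spindle and cytokinesis genes had the highest median ratio, 3.61 in control and 3.25 in the other, and all 25 of 25 genes passed 2-fold in each. Centromere and kinetochore genes followed with 3.09 and 2.91 (19 of 19 and 21 of 22 past 2-fold), mitotic kinases and anaphase regulators with 2.86 and 2.68, and chromosome condensation and chromatin genes with 2.47 and 2.46. Cyclins and their kinases (2.07 and 1.64) and genes of DNA repair (1.96 and 1.69), DNA synthesis (1.45 and 1.56) and replication licensing (1.18 and 1.21) stood lower, against medians of 0.05 and 0.07 over all genes.

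Licensing genes load and start the replicative helicase. All 15 measured of 18 were above 0 in each library, and 8 passed 2-fold in control and 12 in the library labelled knockout. Mcm5, a subunit of that helicase, was 98.9 CPM in control members and 88.9 CPM in the others, against 31.1 and 24.2 CPM in non-cycling cells. Mcm10, which helps the helicase to fire, was 32.1 and 33.2 CPM against 3.61 and 1.98 CPM. Neither gene differed between the libraries beyond counting error, and the interval of the knockout over control ratio for Mcm5 ran from 0.761 to 1.06.

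Genes of DNA synthesis make nucleotides and copy the strands. Of 26, 19 passed 2-fold in control and 17 in the library labelled knockout. Rrm2, the regulated subunit of ribonucleotide reductase, was 65.3 and 59.4 CPM in members and 2.78 and 3.52 CPM in non-cycling cells. Tk1, thymidine kinase, was 127 and 126 CPM against 11.1 and 11.9 CPM. Pcna, the sliding clamp of the polymerases, was nearer between classes, 126 and 141 CPM against 66.5 and 70.8 CPM. Of 12 DNA repair genes, all 8 measured in control and all 9 measured in the other library passed 2-fold.

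Cyclins and their kinases split by the phase in which they act. Ccnd1, a cyclin of the G1 phase, was nearly level between classes, 281 and 330 CPM in members against 244 and 252 CPM, and Ccnd2 was lower in members, 46.0 and 72.3 CPM against 62.6 and 108 CPM. Ccne1, the cyclin of replication onset, was 21.2 and 23.8 CPM against 2.78 and 4.62 CPM. Ccna2, a cyclin of replication and early mitosis, was 160 and 117 CPM against 0.56 and 1.98 CPM, and Ccnb1, which drives entry into mitosis, 138 and 99.3 CPM against 0.83 and 0.88 CPM. Cdk6, a kinase partner of the D cyclins, was 119 and 135 CPM in members and 129 and 146 CPM in the rest.

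Brakes of the cycle did not all stand on the same side. Of 18 inhibitor genes 15 were measured, and 5 passed 2-fold upward in each library. Cdkn2c, an inhibitor of CDK4 and CDK6, was 77.3 and 65.3 CPM in members against 7.79 and 5.06 CPM, and Cdkn3, a phosphatase acting on CDKs, 57.2 and 51.9 CPM against 2.78 and 3.74 CPM. Cdkn1a, which encodes the inhibitor p21, was lower in members, 123 and 150 CPM against 205 and 378 CPM. Btg1, an antiproliferative factor, was lower as well, 297 and 254 CPM against 512 and 569 CPM. Among transcription factors, Foxm1, an activator of mitosis genes, was 47.5 and 37.2 CPM against 0.83 and 0.88 CPM, whereas Myc was level, 21.6 and 30 CPM against 22.8 and 28.1 CPM.

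Of 18 genes of mitotic kinases and anaphase regulators, 16 were at least 2-fold higher in members in control and 15 in the other library. Plk1, a kinase of mitotic entry and spindle formation, was 84.6 and 66.9 CPM in members and 1.39 and 0 CPM in non-cycling cells. Cdc20, the activator of the anaphase-promoting complex, was 87.7 and 73.6 CPM against 0.56 and 0.22 CPM, and Ube2c, its ubiquitin-conjugating enzyme, 353 and 266 CPM against 4.17 and 7.69 CPM. Pttg1, securin, was an exception in its list, 24.7 and 35.9 CPM against 23.1 and 44.6 CPM. Outside these, Cenpf, a kinetochore protein, was 363 and 237 CPM against 5.01 and 4.40 CPM, Hmmr, a spindle protein, 171 and 149 CPM against 0.56 and 1.32 CPM, and the replication-dependent histone Hist1h2ap 263 and 300 CPM against 3.06 and 5.72 CPM. Histone genes are near-identical copies, so the split of reads among them is uncertain.

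**Figure D2:**
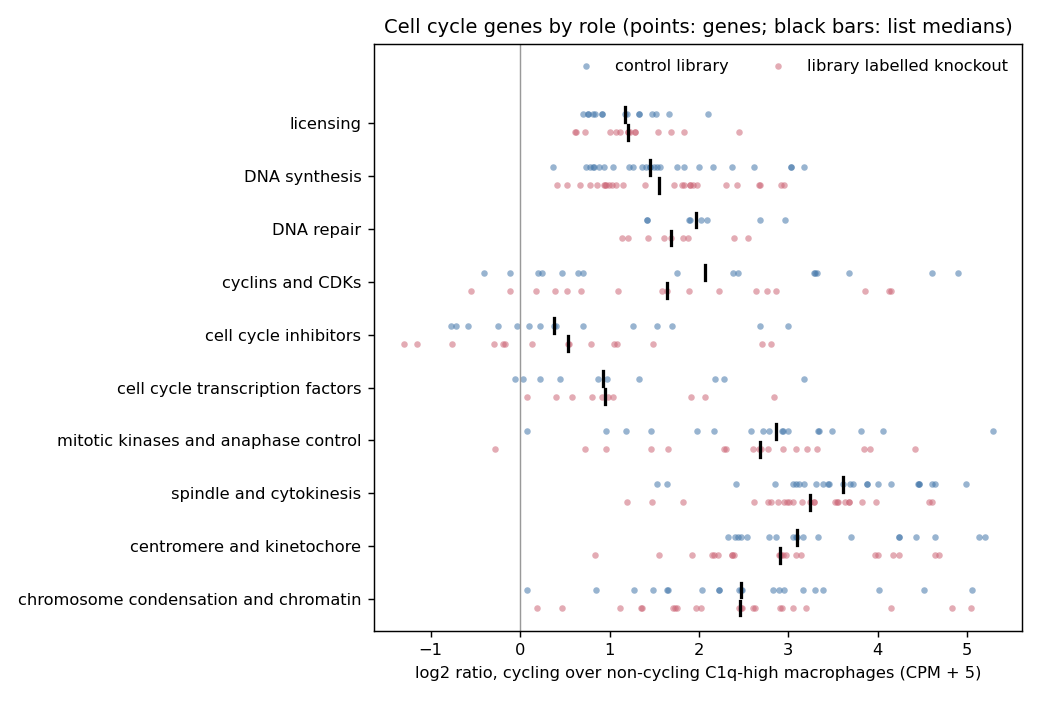
Log2 ratio of CPM plus 5, cycling over non-cycling C1q-high macrophages (x axis), for each measured gene (points) of 10 cell cycle lists (y axis) in the control library and the library labelled knockout, with list medians as black bars. Spindle genes had the highest medians (3.61 and 3.25) and inhibitors the lowest (0.38 and 0.54), and the libraries ran in parallel.

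Promoters of genes that stood high together are shown because the share holding a given run of letters differed between the lists. RefSeq promoter windows (GRCm38.p6, 250 bases before to 50 after the start) were matched by gene symbol and searched on both strands. The searches were for the cell cycle homology region (CHR) as TTTGAA or TTCGAA, and for an E2F site as TTTCCCGC, TTTGGCGC, TTTCGCGC or TTTGCCGC. A CHR match was present in 17 of 22 spindle genes with a window (77.3%), 13 of 19 chromatin genes (68.4%), 11 of 17 mitotic kinase genes (64.7%) and 11 of 19 kinetochore genes (57.9%), against 21.7% of all 27025 genes. It was present in 4 of 12 licensing and 3 of 23 DNA synthesis genes. An E2F match was present in 8 of 12 licensing genes (66.7%) and 8 of 23 DNA synthesis genes (34.8%), against 2.60% of all genes, and in 1 of 22 spindle and 0 of 17 mitotic kinase genes. Other lists were mixed: 4 of 19 chromatin genes (21.1%) had an E2F match. Of cell cycle transcription factor genes 5 of 9 had a CHR match and 5 of 9 an E2F match, and of cyclin and kinase genes 5 of 13 and 3 of 13. A match is a run of letters and no evidence of binding. Top2a (chr11:99024140-99024439, minus strand) holds 4 CHR matches and Cdc20 (chr4:118437294-118437593, minus strand) 1, and Mcm5 (chr8:75109259-75109558, plus strand) holds 2 overlapping E2F matches, all in capitals:
Top2a promoter: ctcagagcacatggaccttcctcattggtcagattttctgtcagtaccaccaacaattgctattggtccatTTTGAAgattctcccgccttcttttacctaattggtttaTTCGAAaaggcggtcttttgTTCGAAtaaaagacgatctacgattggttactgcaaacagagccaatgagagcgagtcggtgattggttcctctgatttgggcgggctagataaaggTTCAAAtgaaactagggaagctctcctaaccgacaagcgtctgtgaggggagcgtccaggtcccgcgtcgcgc
Cdc20 promoter: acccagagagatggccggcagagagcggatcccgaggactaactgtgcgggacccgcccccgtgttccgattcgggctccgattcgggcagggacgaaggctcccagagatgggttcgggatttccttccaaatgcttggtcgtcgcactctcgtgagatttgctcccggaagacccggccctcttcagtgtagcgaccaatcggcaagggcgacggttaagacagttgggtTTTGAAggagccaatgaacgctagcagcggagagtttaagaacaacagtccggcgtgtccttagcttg
Mcm5 promoter: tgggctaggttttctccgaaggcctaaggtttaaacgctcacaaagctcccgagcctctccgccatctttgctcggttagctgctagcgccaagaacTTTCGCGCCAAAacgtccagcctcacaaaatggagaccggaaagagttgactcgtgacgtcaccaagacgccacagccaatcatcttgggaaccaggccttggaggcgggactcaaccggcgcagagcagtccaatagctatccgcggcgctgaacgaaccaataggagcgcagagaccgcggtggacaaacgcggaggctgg

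Members varied in their balance of replication and mitosis transcripts, and in most the mitosis lists held more UMIs. Each member's UMIs of the licensing and DNA synthesis lists were set against those of the mitotic kinase, spindle and kinetochore lists, without the tubulin genes and Stmn1. The former hold 18 and 26 genes and the latter 18, 25 and 22 before those genes were left out. Sums were not scaled for this, so the point of equal UMIs depends on the lists. The replication lists held at least as many UMIs in 36 of 176 control members (20.5%, 14.8 to 27.2%) and 58 of 216 members of the library labelled knockout (26.9%, 21.1 to 33.3%), whose intervals overlap. The median member had 17.5% and 22.9% of these UMIs in the replication lists. The values had a broad upper tail, with 15 control and 18 other members between 70 and 80%, 9 and 10 between 80 and 90%, and none above. Since Mki67 and Top2a are themselves highest late in the cycle, the rule takes in fewer cells at the start of replication. Of the non-cycling cells, 61 of 391 (15.6%) and 62 of 498 (12.4%) had at least the replication level of the median member, 1387 and 1564 CPM. Of the cells with 1 or 2 Mki67 and Top2a UMIs, 39 of 97 (40.2%) and 50 of 150 (33.3%) did.

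The replication-led and mitosis-led members differed in the genes the split used and in others it did not. Ccne1, the cyclin of replication onset, was 58.5 CPM in replication-led and 10.0 CPM in mitosis-led control members, and 61.2 and 7.67 CPM in the library labelled knockout. Ccnb2, a mitotic cyclin, ran the other way, with 18.4 and 224 CPM in control and 25.7 and 190 CPM in the other. Ccnd1 was higher in replication-led members, 463 and 226 CPM, and 413 and 294 CPM. Macrophage and interferon genes varied less along this axis: the mature macrophage list was 23852 and 24221 CPM in control and 28714 and 27201 CPM in the other, and the interferon-stimulated list 2913 and 2623 CPM in control and 4114 and 5235 CPM in the other. Replication-led members were deeper, with medians of 17180 against 11930.5 UMIs in control and 19265.5 against 14989.5 in the other.

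**Figure D3:**
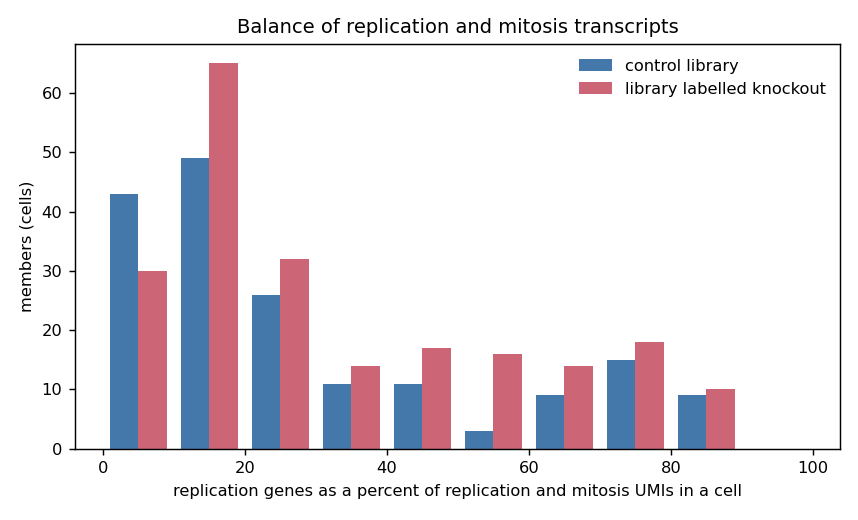
Members of each library (y axis, cells) by the share of their replication and mitosis UMIs that fell in the replication lists (x axis, percent, bins of 10). Most members lie below 50%, and 20.5% of control members and 26.9% of members of the library labelled knockout were led by replication genes.

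Monocyte and inflammatory genes, which the rule did not use, had median ratios below 0 in members of both libraries. All 14 measured monocyte genes were lower in members of each library, 7 at least 2-fold in control and 11 in the other, with medians of -1.06 and -1.63. Fn1, fibronectin, was 224 and 175 CPM in members against 1141 and 773 CPM, Vcan, a matrix proteoglycan of monocytes, 27.4 and 27.3 CPM against 117 and 129 CPM, and Ccr2, the receptor that draws monocytes into tissue, 392 and 205 CPM against 724 and 589 CPM. Arg1, arginase, was 107 and 139 CPM against 557 and 806 CPM, and 1 cell held 51.1% of its control UMIs. Spp1, osteopontin, was 358 and 449 CPM against 1440 and 2019 CPM, with 33.4% and 26.5% of members' UMIs in 1 cell. Inflammatory genes had medians of -0.73 and -1.06, with 6 of 20 measured at least 2-fold lower and 3 above 0 in control, and 11 of 21 at least 2-fold lower in the other. Il1b, an inflammatory cytokine, was 39.8 and 48.5 CPM in members and 143 and 142 CPM in non-cycling cells. Over both libraries, 51 of 8229 genes measured in each (0.620%) were at least 2-fold lower in members and 258 (3.14%) at least 2-fold higher.

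Macrophage identity genes were closer between the classes. Mature macrophage genes had medians of -0.25 and -0.06, with 1 of 26 genes at least 2-fold lower in control, Spp1, and 3 in the other library, Spp1, Fabp5 and Fcgr1. Cx3cr1 and Cd81 were the 2 genes at least 2-fold higher in members of the library labelled knockout. Cx3cr1, the fractalkine receptor, was 411 and 251 CPM against 277 and 115 CPM, and Cd81, a tetraspanin, 239 and 253 CPM against 174 and 114 CPM. Mrc1, the mannose receptor, was level, 683 and 698 CPM against 697 and 718 CPM, and so was Spi1, which encodes the macrophage factor PU.1, 334 and 335 CPM against 358 and 393 CPM. Csf1r was 410 and 360 CPM against 528 and 375 CPM. Of 20 genes of a tissue-resident and alternative macrophage list, which includes Mrc1, 14 were measured in members. Among the scarce ones, Timd4, a receptor for dying cells, had no UMI in any member. Lyve1, a hyaluronan receptor, was detected in 1 and 4 members, and Cd163, the haemoglobin scavenger receptor, in 5 and 8. Igf1, a growth factor made by macrophages, was 197 and 186 CPM in members and 195 and 110 CPM in non-cycling cells.

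MHC class II and interferon-stimulated genes stood below non-cycling cells in median, with few calls in control. The MHC class II list had medians of -0.52 and -1.09, with 0 of 10 measured genes at least 2-fold lower in control and 5 of 10 in the other, and its sum was 8214 and 3528 CPM in members against 12964 and 8846 CPM. The interferon-stimulated list had medians of -0.38 and -1.04, with 7 of 34 measured genes at least 2-fold lower and 3 above 0 in control, and 20 of 38 at least 2-fold lower in the other. MHC class I genes had medians of -0.11 and -0.55, with 6 of 15 above 0 and none at least 2-fold lower in control, and 2 of 15 at least 2-fold lower in the other. Glycolysis and hypoxia genes stood at -0.42 and -0.48, with all measured genes below 0 in each library, and Vegfa, the vascular growth factor, was the lowest. Members hold a larger part of their UMIs in cell cycle genes. Without the cell cycle lists in the totals, an alternative added after the data were seen, the summed class II list stood at -0.63 and -1.30 and the summed interferon-stimulated list at -0.56 and -1.14. Over all alternatives, which include Xist-only and Y-linked-only cells, the class II value ran from -0.89 to -0.59 in control. In the other library it ran from -3.00 to -0.97. The interferon-stimulated value ran from -0.92 to -0.51 and from -1.39 to -0.85.

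Between the libraries, the measured cell cycle genes of members differed by less than 2-fold, and those of mitosis and repair were mostly lower in the library labelled knockout. Of 8384 genes with at least 50 UMIs over both groups of members, 47 (0.561%) were at least 2-fold higher in the library labelled knockout and 23 (0.274%) at least 2-fold lower, and no gene of the 10 cell cycle lists was among them. The counts were 79 and 35 with a mitochondrial limit of 5%, and 28 genes were higher without the cells holding both Xist and Y-linked UMIs. Medians of the 10 cell cycle lists lay between -0.39 (spindle and cytokinesis) and 0.03 (licensing), against -0.02 over all genes. All 25 spindle genes were below 0, from -0.89 for Nusap1, a microtubule-bundling protein with 123 and 64.0 CPM, to -0.01 for Tuba1b. Below 0 as well were 21 of 22 kinetochore, 16 of 18 mitotic kinase, 19 of 22 chromatin and all 12 DNA repair genes (median -0.31). Of licensing and DNA synthesis genes, 6 of 15 and 15 of 26 were below 0, against 4469 of all 8384 measured genes. The summed spindle list was 5091 and 4313 CPM, and within kinds of cells it was 5350 and 4050 CPM in Xist-only members and 5196 and 5216 CPM in Y-linked-only members, so the lower sum was seen in Xist-only cells and not in Y-linked-only cells.

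Interferon-stimulated genes made up 14 of the 47 genes at least 2-fold higher. All 37 measured of 40 were above 0, with a median log2 ratio of 0.73. Rsad2, which encodes the antiviral enzyme viperin, was 16.6 CPM in control members and 209 CPM in the others, a ratio of 12.6 (9.24 to 17.5), but 30.9% of the UMIs behind the second value lay in 1 cell. Isg15 was 43.7 and 201 CPM, and was detected in 47 of 176 and 120 of 216 members. Irf7, the factor that amplifies the interferon response, was 31.7 and 137 CPM, and Oasl1, an oligoadenylate synthase-like protein, 8.88 and 62.9 CPM. Irf9, a subunit of the interferon-activated transcription factor complex, had the lowest ratio of the list, at 45.2 and 52.5 CPM. Thinned to 1000 UMIs, 2.84% of control members (0.929 to 6.50%) and 12.0% of the others (8.02 to 17.1%) had an Isg15 UMI, against 0.62% and 0.99% of B cells.

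The same genes differed more between the libraries in non-cycling macrophages. There the list median was 1.33 and 28 of 38 measured genes were at least 2-fold higher, where 1.54% of 8555 genes were higher and 0.234% lower by that measure. Isg15 was 93.7 CPM in control and 870 CPM in the other library, a ratio of 9.29 (8.31 to 10.4), against 4.61 (3.77 to 5.66) in members. Usp18 was 23.9 and 108 CPM, a ratio of 4.53 (3.60 to 5.77), against 1.85 in members. As sums, the list was 2690 and 4897 CPM in members and 4037 and 10981 CPM in non-cycling cells. The non-cycling cells of the library labelled knockout held more Xist-only cells than its members did, and values within each kind are given next.

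**Figure D4:**
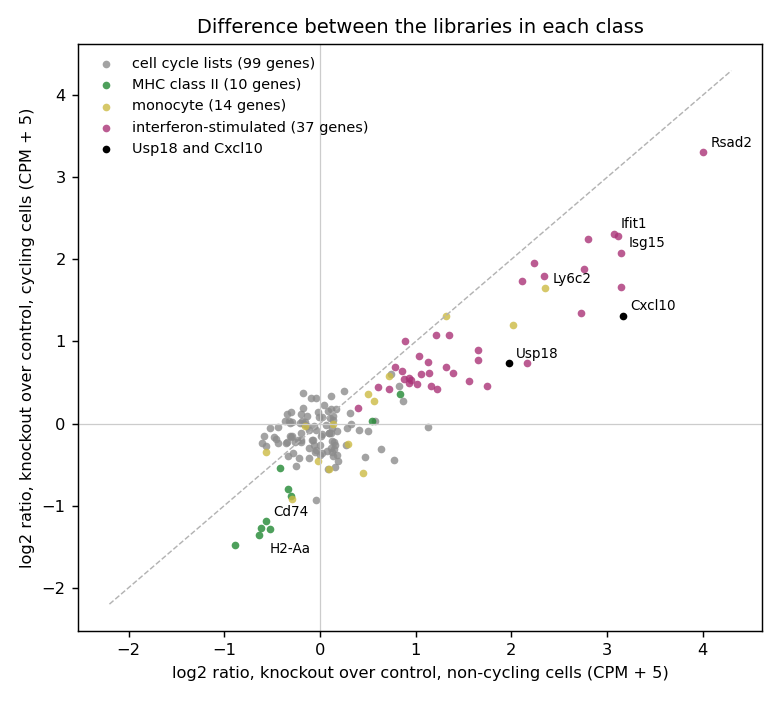
Log2 ratio of CPM plus 5, library labelled knockout over control, in cycling members (y axis) against non-cycling C1q-high macrophages (x axis), for measured genes of the cell cycle, MHC class II, monocyte and interferon-stimulated lists and for Usp18 and Cxcl10. The dashed line marks equal ratios. Interferon-stimulated genes lie mostly below it, at a median of 0.73 in members and 1.33 in non-cycling cells, and cell cycle genes differ by less than 2-fold on the y axis.

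Divided by kind of cell, the interferon difference was uneven. Rsad2 was 16.0 and 183 CPM in Xist-only members but 15.9 and 17.1 CPM in Y-linked-only members, whose intervals overlap. Isg15 was 57.7 and 228 CPM in the former and 43.0 and 71.2 CPM in the latter, and Irf7 was 35.2 and 150 CPM and 28.9 and 81.6 CPM. The summed list was 2859 and 5259 CPM in Xist-only members (ratio 1.84, 1.75 to 1.94) and 2625 and 3306 CPM in Y-linked-only members (1.26, 1.20 to 1.32). In non-cycling cells it was 4087 and 12095 CPM and 3742 and 5951 CPM, ratios of 2.96 (2.85 to 3.07) and 1.59 (1.53 to 1.65), so within each kind the ratio was again smaller in members. Of the 47 genes, 36 were at least 2-fold higher within Xist-only members and 12 within Y-linked-only members, and 5 were in both: Ccl7, Ifi44, Irf7, Lyz1 and Selm. In the other direction ran 12 of the 47 in Y-linked-only members and 1 in Xist-only members. A genotype effect cannot be told apart from a difference between the animals in each pool.

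The promoters of Rsad2 and Ifit3 are shown as those of 2 genes with large ratios in members. The core of the interferon response element, a pair of GAAA repeats with any 2 bases between them, was searched on both strands and was present in 16 of 30 listed genes with a window (53.3%), against 3.99% of all genes and 0 of 22 spindle genes. Other lists varied. It was present in 2 of 9 DNA repair, 2 of 17 mature macrophage and 2 of 19 kinetochore genes. Monocyte (0 of 11) and MHC class II (0 of 7) genes had none. Ifit3, an antiviral RNA-binding protein, was 9.66 CPM in control members and 64.8 CPM in the others. Its window (chr19:34583279-34583578, plus strand) holds 2 matches and that of Rsad2 (chr12:26456403-26456702, minus strand) holds 1, in capitals:
Rsad2 promoter: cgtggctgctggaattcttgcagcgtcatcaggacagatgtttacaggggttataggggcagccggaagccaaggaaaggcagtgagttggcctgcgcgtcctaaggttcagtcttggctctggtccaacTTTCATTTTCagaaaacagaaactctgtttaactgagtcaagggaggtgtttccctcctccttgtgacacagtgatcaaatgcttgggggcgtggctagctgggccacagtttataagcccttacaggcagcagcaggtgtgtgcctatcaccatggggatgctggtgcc
Ifit3 promoter: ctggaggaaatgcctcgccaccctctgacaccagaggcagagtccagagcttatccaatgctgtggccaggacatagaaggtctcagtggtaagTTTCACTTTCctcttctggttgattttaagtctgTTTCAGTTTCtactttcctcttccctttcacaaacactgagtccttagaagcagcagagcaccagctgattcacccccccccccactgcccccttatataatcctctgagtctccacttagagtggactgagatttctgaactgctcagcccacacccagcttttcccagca

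MHC class II genes ran opposite to the interferon-stimulated genes. Of 12, 10 were measured, 8 were below 0 in the library labelled knockout and 5 were at least 2-fold lower: Ciita, H2-Aa, H2-Ab1, H2-Eb1 and Cd74. Ciita, the master regulator of the pathway, was 33.6 CPM in control members and 8.83 CPM in the others. H2-Aa, a chain of the class II molecule, was 1490 and 578 CPM, and Cd74, the invariant chain, 3386 and 1478 CPM. The costimulatory genes Cd86 (49.1 and 50.1 CPM) and Cd40 (18.2 and 24.6 CPM) did not share this pattern. In non-cycling cells 8 of 11 measured class II genes were below 0, but none was at least 2-fold lower. Their median was -0.42 there against -1.04 in members, and Ciita was 39.2 and 18.9 CPM. MHC class I genes, the path to CD8 T cells, had a median of 0.22, and H2-K1 was 971 and 1130 CPM.

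The difference in the summed class II list lay mainly in Y-linked-only cells. Ciita was lower in both kinds, with log2 ratios of -1.20 in Xist-only and -2.18 in Y-linked-only members. The summed list was 8753 CPM in Y-linked-only control members and 487 CPM in those of the library labelled knockout, a difference of -4.17 on the log2 scale (-4.30 to -4.04), and H2-Ab1 was 1616 and 74.0 CPM. In Xist-only members the sum was 5789 and 5232 CPM, and H2-Ab1 was 1123 and 924 CPM. By cell, 43 of 108 Y-linked-only control members (39.8%, 30.5 to 49.7%) and 62 of 67 in the library labelled knockout (92.5%, 83.4 to 97.5%) had under 1000 CPM of the list. In Xist-only members the counts were 32 of 48 (66.7%, 51.6 to 79.6%) and 54 of 108 (50%, 40.2 to 59.8%), in the opposite order. Those intervals overlap. Mgl2, a lectin of macrophages and dendritic cells, likewise was 135 CPM in Y-linked-only control members and had 0 UMIs in the 67 others, where 3 UMIs would be 2.85 CPM, and in Xist-only members it was 48.1 and 83.0 CPM. The cDC2 list, which includes Mgl2, was 243 and 32.3 CPM in Y-linked-only members, and its part in the class II difference was not tested. Non-cycling cells had the same orders by kind. Under 1000 CPM of the class II list were 46 of 186 (24.7%) and 44 of 71 (62.0%) Y-linked-only non-cycling cells. In Xist-only non-cycling cells the counts were 39 of 91 (42.9%) and 101 of 350 (28.9%).

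Chemokine and monocyte genes complete the comparison. Ccl7, Ccl12 and Ccl2, ligands of the receptor CCR2, were at least 2-fold higher in members of the library labelled knockout, at 304 and 1028 CPM, 283 and 691 CPM, and 798 and 1847 CPM. Ccl2 was detected in 131 of 176 and 200 of 216 members. Unlike Rsad2, Ccl7 was higher in both kinds, 280 and 1152 CPM in Xist-only and 319 and 848 CPM in Y-linked-only members. It was higher in non-cycling cells too, at 765 and 2243 CPM. Of the inflammatory and chemokine list, 3 of 20 measured genes were at least 2-fold higher in members (median 0.29), against 0.561% of all genes. In non-cycling cells 8 of 21 were (median 0.67), against 1.54% of all genes. Cxcl3, a ligand for neutrophils, was the 1 gene of that list at least 2-fold lower, 19.7 and 6.42 CPM, in 8 and 9 cells, 1 of which held 47.1% of the control UMIs. Among monocyte genes, Ly6c2 (19.3 and 71.2 CPM), Plac8 (101 and 257 CPM) and Ms4a4c (59.5 and 143 CPM) were at least 2-fold higher and Ccr2 was 392 and 205 CPM, so the list median was -0.02. In control, 1 cell held 36% of the Ly6c2 UMIs. All 3 had the opposite order in Y-linked-only members: Ly6c2 was 21.2 and 1.90 CPM there against 20.8 and 81.4 CPM in Xist-only members, Plac8 87.8 and 21.8 CPM against 136 and 337 CPM, and Ms4a4c 60.1 and 43.6 CPM against 48.1 and 182 CPM. The list's sum was 1916 and 3111 CPM in Xist-only and 2941 and 1049 CPM in Y-linked-only members. In non-cycling cells the monocyte list median was 0.37, and Ly6c2 had a log2 ratio of 2.36 against 1.65 in members.

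**Figure D5:**
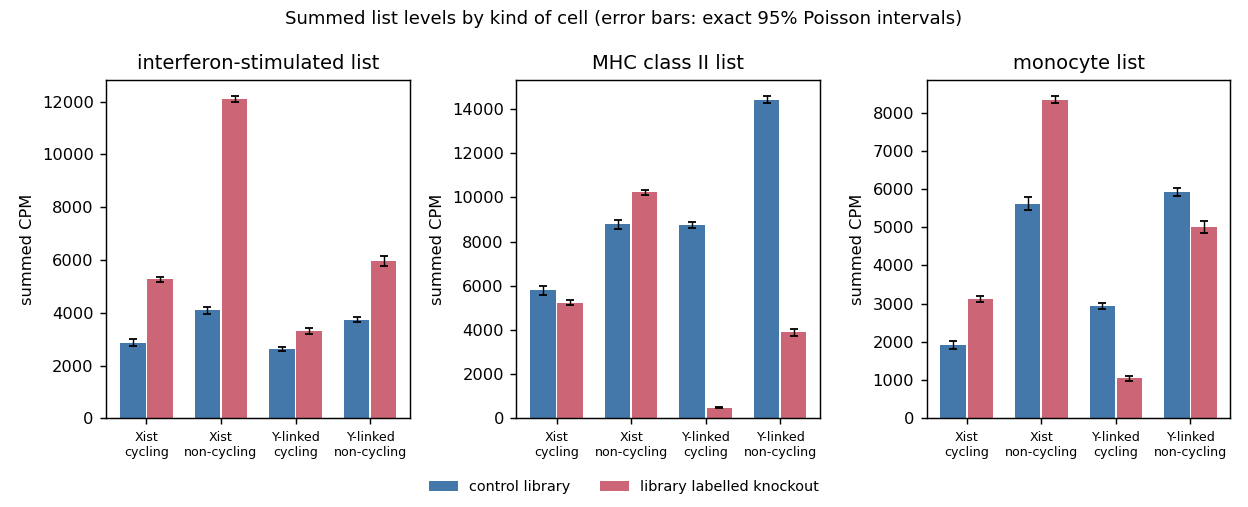
Summed levels (y axis, CPM) of the interferon-stimulated, MHC class II and monocyte lists in Xist-only and Y-linked-only cells, cycling and non-cycling, of the control library and the library labelled knockout, with exact 95% Poisson intervals. In Y-linked-only members the class II sum was 8753 and 487 CPM, and in Xist-only members 5789 and 5232 CPM.

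A few other genes separated the members of the libraries. Lower in the library labelled knockout were Cd24a, a surface glycoprotein, at 30.9 and 4.82 CPM, Cbfa2t3, a transcriptional corepressor, at 58.3 and 15.3 CPM, Ear2, a ribonuclease, at 45.6 and 11.5 CPM, and Hpgd, the enzyme that inactivates prostaglandins, at 21.2 and 5.89 CPM. Higher was Slfn4, a Schlafen family gene, at 5.02 and 48.2 CPM. Non-cycling cells also differed, with Slfn4 at 21.7 and 216 CPM, Ear2 at 49.5 and 11.7 CPM and Hpgd at 11.4 and 2.42 CPM. Cd24a (24.7 and 14.5 CPM) and Cbfa2t3 (44.2 and 32.5 CPM) differed less there than in members. Of the 23 genes at least 2-fold lower, 12 were so in Xist-only and 19 in Y-linked-only members, and Ear2 was not among the former. S100a8 and S100a9, abundant transcripts of neutrophils, were 102 and 0.80 CPM and 88.8 and 0.80 CPM, and 34.6% and 31.7% of the control UMIs lay in 1 cell. Gzma, a granzyme of killer cells, was 1.93 and 34.8 CPM, with 98.5% of the latter in 1 cell. These were also the genes whose log2 library ratio differed most between the classes, with -4.02 in members and -0.23 in non-cycling cells for S100a9, and 2.52 and -0.09 for Gzma. These values rest on few cells: the 351 UMIs of S100a9 in non-cycling cells of the library labelled knockout came from 3 of 498 cells, and Gzma was detected in 4 and 3 members. Among mature macrophage genes, Trem2, a lipid receptor, was 516 and 583 CPM in Xist-only and 518 and 978 CPM in Y-linked-only members, and Cx3cr1 was 655 and 237 CPM and 318 and 280 CPM.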

How the data were processed

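Each group was 1 pooled library. Per the labels and the submitters' processing notes, the authors used Cell Ranger 3.0.1 and mm10; what they deposited is a matrix of UMI counts for each library, not normalized. The members and gene lists were chosen with earlier results of these data known. Cells were taken by the rule given at the start, UMI counts were summed per library and class, and sums were expressed as CPM with exact Poisson intervals; ratios carry exact conditional binomial intervals, shares exact Clopper-Pearson intervals, all at 95% and for counting error only (a count of 0 allows up to 3 UMIs). Log2 ratios used CPM plus 5 and genes with at least 50 UMIs over both groups compared; 2-fold was the limit for calling a gene. Genes named beyond the lists were those with the largest ratios whose interval excluded 1 and of which no cell held over 25% of UMIs, plus those whose ratios differed most between classes; Rsad2, S100a8 and Gzma stand under the lists or the last clause. Doublets were not removed; Scrublet (scanpy 1.11.5, Python 3.11.15, scipy 1.17.1) was an alternative. Gene coordinates are from GENCODE M21 (GRCm38). The scripts were tested on simulated data. The alternatives are given in the closing section.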

Additional observations from a re-analysis of the deposited data

Results flagged for a closer look

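Some gene lists pointed one way in Xist-only members and the other way in Y-linked-only members when the library labelled knockout was set against control, as log2 ratios of summed CPM. The difference between the kinds was not tested, and each kind may hold different mice. The monocyte list was 0.70 in Xist-only and -1.49 in Y-linked-only members, the cDC2 list 0.74 and -2.91, and the interferon-gamma-associated list 0.80 and -0.47. The glycolysis and hypoxia list was 0.40 and -0.20, and the tissue-resident and alternative macrophage list 0.16 and -0.17. The mature tumor macrophage list was -0.05 and 0.36, the DNA synthesis list -0.16 and 0.10, and the B cell list, with few UMIs, -0.82 and 0.69.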

How the results depend on the processing

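Each group is 1 pool, so no replicate could be left out, and the depth and the 48 Xist-only control members limit what the kinds can show. No paired analysis was possible because each group is 1 library. Of the main results, 76 values under alternatives stayed near the reported value, 25 moved and 2 reversed; of the others 273, 209 and 13. The causes were not tested.

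The log2 ratio of cycling shares, knockout over control (-0.44), was -0.90 in Xist-only cells and -0.084 without thinning, and reversed to 0.15 in Y-linked-only cells and to 0.081 at 10000 UMIs. The 258 genes higher and 51 lower in cycling cells of both libraries became 122 higher in Xist-only cells, 26 lower in Y-linked-only cells, and 160 and 23 with a pseudocount of 20 CPM. The 47 genes higher in the library labelled knockout became 79 at a 5% mitochondrial limit, 92 in Xist-only cells, 24 in Y-linked-only cells, 21 with a pseudocount of 20, and 28 without cells holding Xist and Y-linked UMIs, an alternative chosen after seeing the data. The 23 lower genes became 35, 56, 104 and 12 under the first 4 of these settings, 54 with a pseudocount of 1 and 37 with at least 20 UMIs.

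The summed interferon-stimulated ratio (0.86) was 0.76 with a cut of 6 Mki67 and Top2a UMIs, 1.13 at 5% mitochondrial, 0.73 without Scrublet calls, 0.33 in Y-linked-only cells, 0.80 with each cell weighted equally, 1.11 without its 3 most abundant genes and 0.74 without cells holding both transcripts. The replication-led share of control members (20.5%) was 14.7% with a cut of 6.

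In Y-linked-only cells the ratio reversed for DNA synthesis (0.10), MHC class I (-0.0076), Usp18 (-0.051), glycolysis and hypoxia (-0.20), interferon-gamma-associated (-0.47) and spindle genes (0.0054), and in Xist-only cells for Ear2 (0.12), Mgl2 (0.73), mature macrophage (-0.046) and monocyte genes (0.70). DNA synthesis also reversed with a cut of 6 (0.0077) and equal cell weights (0.022), and glycolysis at 5% mitochondrial (-0.16).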
